A study of Mus musculus with 24 samples.

Results

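DKO and Tet1-/- mouse embryonic stem cell (ESC) clones were compared after 6 days without leukemia inhibitory factor (LIF), the cytokine that holds mouse ESCs in the pluripotent state. The comparison therefore set cells edited at both *Tet1* and *Tet2* against cells edited at *Tet1* alone. Libraries were chosen by the genotype and day in their labels, which gave 5 of the 24 libraries of the series: 2 of DKO (replicates 1 and 2, from separate clones) and 3 of Tet1-/- (clones 2.1, 2.2 and 2.4). At day 6 (D6), 3 WT and 2 Tet2-/- libraries served to set the loss of *Tet2* on the *Tet1*-edited background beside its loss alone, and 2 TKO libraries, edited at all *Tet* genes, entered the fit that estimates the spread. At day 0 (D0), before LIF was withdrawn, the same genotypes gave 2 DKO libraries and 3 Tet1-/- libraries (clones 2.1, 2.3 and 2.4).

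All lines descend from 1 parental ESC clone of 129/SVj origin with an eGFP reporter in *Pou5f1* (Oct4), grown on gelatin without feeder cells, and the edits were made with CRISPR/Cas9. Each library was made from polyadenylated RNA of 1 clone, so the replicates are clones, and the p-values measure the spread between clones. The clone name of DKO replicate 1 at D6 lacks the point that a like name at D0 has, and both were taken as 1 clone in an alternative only.

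TET enzymes oxidise 5-methylcytosine in DNA, a first step in removing methylation, and *Tet1* and *Tet2* are the members most used in ESCs. After LIF is withdrawn, ESCs leave the naive state and turn on genes of the primitive streak, mesoderm and endoderm. Genes of the germline are commonly held silent by methylation of their CpG-rich promoters once cells leave pluripotency. The question put to these libraries was what the loss of *Tet2* adds when *Tet1* is already lost.

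The edited sites are shown because they define the groups. Both target windows were found once in the mouse genome (build mm9, NCBIM37), on the minus strand, which is the strand of both genes. The *Tet1* window lies at chr10:62296283-62296317, in a coding exon numbered 4 or 5 by transcript, and its last 3 bases run past the exon. The *Tet2* window lies at chr3:133148610-133148641, inside a coding exon numbered 1 or 3 by transcript. In the reference windows the capitals mark the protospacer adjacent motif beside which Cas9 cuts, and in the alleles listed by the study they mark the bases deleted:
Tet1 window: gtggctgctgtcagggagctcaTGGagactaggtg
Tet2 window: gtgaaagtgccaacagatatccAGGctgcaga
Tet1-/- clone, Tet1 allele: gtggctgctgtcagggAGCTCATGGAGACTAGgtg
Tet1-/- clone, Tet1 allele: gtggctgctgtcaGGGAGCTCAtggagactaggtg
DKO clone, Tet1 allele: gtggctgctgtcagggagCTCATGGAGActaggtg
DKO clone, Tet1 allele: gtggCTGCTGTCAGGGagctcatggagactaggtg
DKO clone, Tet2 allele: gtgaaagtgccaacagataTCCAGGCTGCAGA
DKO clone, Tet2 allele: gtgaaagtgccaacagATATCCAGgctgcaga
The Tet1-/- clones had 6 listed *Tet1* alleles with 6 to 16 bases deleted, and 3 of these deletions were multiples of 3. The DKO clones had 4 listed *Tet1* alleles, of which 2 had deletions that were multiples of 3 and 1 lacked the whole window of 35 bases. At *Tet2* the DKO clones had 4 listed alleles, 3 with a deletion and 1 with an insertion of 1 base. The deletions of 2 and 8 bases were not multiples of 3, and that of 13 bases reaches the end of the window, so its full length is not known here. The list numbers its clones separately, so an allele could not be tied to a library here.

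Summed over the genes used, the DKO libraries held 28249721 and 34219640 counts and the Tet1-/- libraries 26033543 to 31426279. The share of the 10 most abundant genes was 4.53% to 5.47% over the 12 D6 libraries. The Tet1-/- clones stood further from each other than the DKO clones did. Of 15435 genes tested at D6, 0.246% differed over 2-fold between the DKO clones, against 2.03% to 6.23% between pairs of Tet1-/- clones and 0.460% to 4.39% between a DKO and a Tet1-/- clone. The biological coefficient of variation was 0.109 in DKO and 0.244 in Tet1-/-. Clone 2.2 had the lowest summed level of 18 naive pluripotency genes, 620 CPM (counts scaled to the library total after TMM normalisation), against 1217 and 1487 CPM in the other Tet1-/- clones and 1323 and 1395 CPM in DKO. Clone 2.4 was low for Y-linked genes: *Ddx3y*, an RNA helicase gene of the Y chromosome, stood at 1.97 CPM there, against 17.6 and 34.5 CPM in the other Tet1-/- clones, 34 and 18.5 CPM in DKO, and 1.58 and 0.0732 CPM in Tet2-/-.

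*Tet2* itself was lower in DKO, but not past the test. Its level was 6.10 CPM in replicate 1 and 10.6 CPM in replicate 2, against 13.4, 14.3 and 14.1 CPM in Tet1-/-. The DKO libraries lay below all Tet1-/- libraries, with a log2 difference of -0.74 (SE 0.256; edgeR quasi-likelihood test, unadjusted p = 0.0149, Benjamini-Hochberg adjusted p = 0.860). It was -0.39 without DKO replicate 1 and -1.20 without replicate 2. At D0 the same difference was -1.29 (SE 0.497, edgeR adjusted p = 0.659), which was called with only the 5 compared libraries in the fit (-1.28, edgeR adjusted p = 0.0162). Whether it changed between the days did not pass the test. *Tet1*, edited in both groups, overlapped between them, at 86.2 and 167 CPM in DKO and 87.9, 163 and 201 CPM in Tet1-/-. *Tet3*, not edited in either group, was at 14.0 and 14.2 CPM in DKO and 12.8 to 17.6 CPM in Tet1-/-. Short deletions leave most of a transcript countable, so these levels do not check the edits. The study checked the edited lines at the protein level and reported loss of protein by Western blot.

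No gene passed the test between DKO and Tet1-/- at D6 with edgeR. A gene was called at an adjusted p-value under 0.05 and a change over 2-fold, and 0 genes were called higher (0.0%) and 0 lower (0.0%), with a smallest adjusted p of 0.705. At an unadjusted p under 0.05 and over 2-fold there were 133 higher genes (0.862%) and 155 lower genes (1.0%). DESeq2 called 3 genes: *Icosl* higher, and *Zfp36l2* and *Trib2* lower. On simulated counts with 200 genes changed 4-fold, the same edgeR fit recovered 156. The simulation gave each gene the same spread in all genotypes, whereas the Tet1-/- clones spread more than the DKO clones. It therefore does not measure how many real changes this comparison could find. Over 2-fold in the fitted values, 258 genes were higher in DKO (1.67%) and 352 lower (2.28%). Among these, 225 higher genes (1.46%) and 163 lower genes (1.06%) had libraries that did not overlap between the genotypes. All differences between DKO and Tet1-/- at D6 given below for single genes are therefore values that were not called by edgeR.

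Among the genes with higher levels in DKO, the smallest p-value belonged to *Icosl*, the ligand of the T-cell costimulator ICOS. It stood at 41.1 and 31.4 CPM in DKO and at 19, 14.3 and 18.8 CPM in Tet1-/-, a log2 difference of 1.06 (SE 0.211; edgeR adjusted p = 0.860; DESeq2 adjusted p = 0.0136). Both DKO libraries were also above the WT libraries (14.3 to 19.5 CPM) and Tet2-/- (8.39 and 10.1 CPM). *Pmaip1*, which encodes the pro-apoptotic BH3 protein Noxa, was at 97.2 and 52.6 CPM in DKO against 37.8, 14.1 and 14.4 CPM in Tet1-/- (log2 1.76, SE 0.445). *Tlr2*, a receptor for bacterial lipoproteins, was at 17.0 and 14.6 CPM against 8.92, 5.18 and 7.91 CPM (log2 1.1, SE 0.272). *Rnf17*, a Tudor-domain gene of the male germline, was at 96.1 and 86.8 CPM in DKO and at 52.6, 31.7 and 52.4 CPM in Tet1-/- (log2 1.01, SE 0.265). In each of these genes the lower DKO library lay above the highest Tet1-/- library, as the naming rule required.

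The same rule named genes of lower level in abundance. *Ulbp1*, a ligand of the NKG2D receptor, stood at 6.57 and 6.51 CPM in DKO and 0.832 to 2.35 CPM in Tet1-/- (log2 2.01). *Pramel1*, of the multigene Prame family, stood at 11.4 and 10.1 CPM against 1.93 to 5.1 CPM (log2 1.5). *Cnga3*, a cyclic nucleotide-gated channel gene, stood at 15.4 and 9.09 CPM against 3.04 to 6.51 CPM (log2 1.29). *Ido2*, of tryptophan breakdown, stood at 14.1 and 10.3 CPM against 3.25 to 7.09 CPM (log2 1.16). Less abundant were *Slamf9*, at 4.40 and 4.79 CPM against 0.945 to 2.26 CPM (log2 1.45), and *Adamdec1*, at 1.94 and 0.630 CPM against 0.155 to 0.227 CPM. *Adamdec1* met the minimum level through DKO alone and was near the floor of 3 counts in Tet1-/-, so no fold is given.

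Among the genes with lower levels in DKO, *Zfp36l2* came first. It encodes a protein that binds AU-rich elements and promotes mRNA decay. Its level was 78.4 and 81.2 CPM in DKO and 133, 168 and 179 CPM in Tet1-/-, a log2 difference of -1.0 (SE 0.167; edgeR adjusted p = 0.705; DESeq2 adjusted p = 5.73e-04). *Trib2*, a pseudokinase gene, was at 5.90 and 8.46 CPM in DKO and 15.9, 24.9 and 12.9 CPM in Tet1-/- (log2 -1.32, SE 0.311; DESeq2 adjusted p = 0.0438). *Ccnd2*, which encodes cyclin D2, was at 12.8 and 21.0 CPM against 47.4, 135 and 41.3 CPM (log2 -2.15, SE 0.637). *Lef1*, a transcription factor of the Wnt pathway, was at 24.4 and 27.3 CPM against 35.9, 90.4 and 45.0 CPM (log2 -1.14, SE 0.335). For *Ccnd2* and *Lef1* the gap was widest to clone 2.2, and both other clones also lay above DKO. Without that clone the differences were -1.40 and -0.65.

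Other genes named by the rule were less abundant. *Map1a*, a microtubule-associated protein gene, was at 8.13 and 8.08 CPM in DKO and 12 to 22.4 CPM in Tet1-/- (log2 -1.16). *Hey1*, a Notch target, was at 4.05 and 4.09 CPM against 5.97 to 26.6 CPM (log2 -1.79). *Cbln1*, a synaptic organiser, was at 3.44 and 3.22 CPM against 5.85 to 14.7 CPM (log2 -1.44). *Rxrg*, a retinoid X receptor, was at 1.59 and 2.48 CPM against 3.75 to 7.22 CPM (log2 -1.43). Without clone 2.2 the differences of *Hey1* and *Cbln1* were -0.94 and -0.90. *Tmem229a* was at 3.21 and 3.25 CPM against 4.80 to 10.6 CPM (log2 -1.30), and *Fam184b* at 1.19 and 1.89 CPM against 3.06 to 4.70 CPM (log2 -1.24). *Akap6*, a kinase anchoring protein gene, was at 0.347 and 0.385 CPM against 1.12 to 2.37 CPM, and *Ankrd34a* at 0.203 and 0.490 CPM against 1.05 to 1.66 CPM. *Akap6* and *Ankrd34a* met the minimum level through Tet1-/- alone and were low in DKO, so no fold between these groups is given.

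Germline genes were higher in DKO than in Tet1-/- in nearly every member. Of 24 listed, 23 were measured well enough to test, 22 had a higher level in DKO than in Tet1-/- (46.6% of all genes did), and 13 were over 2-fold higher (1.67% of all genes). For 15 of the 23 both DKO libraries lay above all Tet1-/- libraries, where 12.1% of all genes did so, and for 0 they lay below. The median log2 difference was 1.06, beside -0.02 over all genes tested, with 0 of the 23 called. Some members averaged under 1 CPM over the 5 libraries, among them *Tuba3b* at 0.247 CPM and *Tex101* at 0.381 CPM. Members this low can pass the filter through libraries where they are high. These counts and the median include them and may lean to that side. Their summed level was 280 and 261 CPM in DKO, 147, 89.9 and 184 CPM in Tet1-/-, 66.7 to 180 CPM in WT, 146 and 153 CPM in Tet2-/- and 294 and 285 CPM in TKO. The clone with the lowest sum among Tet1-/-, 2.2, also had the lowest naive pluripotency level. Without it the median was 0.73, and the lowest and highest medians over all alternatives were 0.73 and 1.32.

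**Figure D1:**
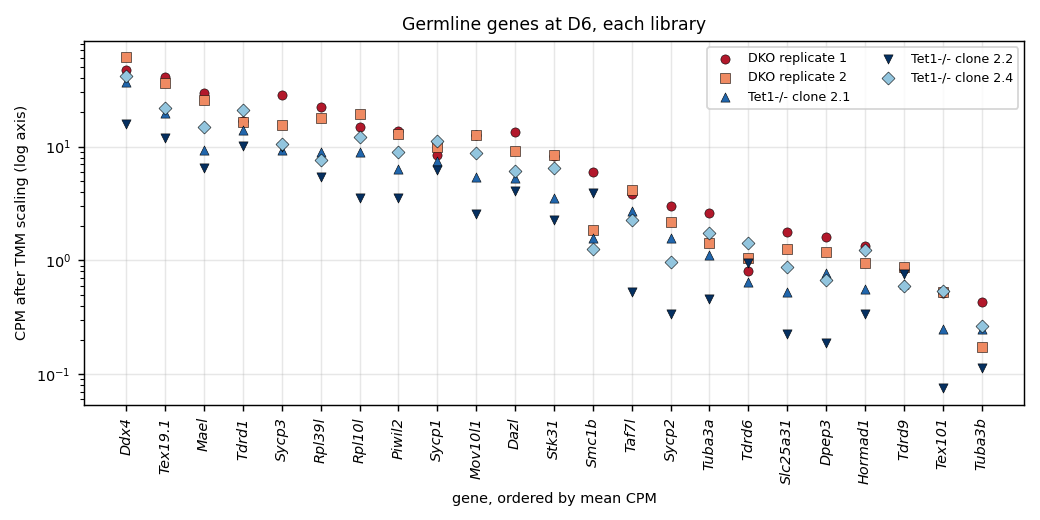
Level of each germline gene (x axis) in CPM after TMM scaling (y axis, log scale) in the 5 libraries at D6, with 1 symbol per clone. The red and orange points of DKO (replicates 1 and 2) lie above all blue points of Tet1-/- for 15 of the 23 genes.

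The members with the smallest p-values serve transposon silencing and meiosis. *Mael*, a piRNA pathway factor, was at 29.8 and 25.9 CPM in DKO and 9.41, 6.47 and 14.8 CPM in Tet1-/- (log2 1.44, SE 0.489, edgeR adjusted p = 0.860). *Mov10l1*, the helicase of piRNA biogenesis, was at 12.7 CPM in both DKO clones and 5.36, 2.53 and 8.88 CPM in Tet1-/- (log2 1.18, SE 0.427). *Piwil2*, a Piwi protein gene, was at 13.7 and 13.0 CPM against 6.32, 3.52 and 8.98 CPM (log2 1.09, SE 0.395). *Sycp3*, a component of the meiotic synaptonemal complex, was at 28.2 and 15.4 CPM against 9.26, 9.98 and 10.5 CPM (log2 1.14, SE 0.417; 0.63 without DKO replicate 1). In each of these 4 genes the groups did not overlap, and for *Mael*, *Mov10l1* and *Piwil2* clone 2.2 was the lowest and clone 2.4 the highest of the Tet1-/- clones.

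The promoters of 3 of these genes are shown because the group is known for its CpG-rich promoters. Promoters were at hand for 21 of the 23 genes, with sequence from RefSeq (build GRCm38.p6, which differs from the build of the counts). The 250 bases before the start site held a median of 14 CG dinucleotides, against 6 over all 27025 promoters. The hexamer CACGTG, the palindromic E-box, occurred in 11 of the 21 and in 6.05% of all promoters. The heptamer TTCCCGC or its complement GCGGGAA, as read by E2F factors, occurred in 7 of the 21 and in 3.84% of all promoters. Capitals mark both motifs, read on either strand, and the printed strand is that of the gene, which is minus for *Mael*, at chr1:166238745-166238994, and plus for *Sycp3*, at chr10:88459337-88459586, and *Mov10l1*, at chr15:88982744-88982993:
Mael promoter: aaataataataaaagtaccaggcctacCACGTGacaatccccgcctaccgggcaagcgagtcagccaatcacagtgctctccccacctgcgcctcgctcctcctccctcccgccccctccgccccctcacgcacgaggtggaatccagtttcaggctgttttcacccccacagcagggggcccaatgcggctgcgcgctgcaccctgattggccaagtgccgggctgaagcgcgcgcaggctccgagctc
Sycp3 promoter: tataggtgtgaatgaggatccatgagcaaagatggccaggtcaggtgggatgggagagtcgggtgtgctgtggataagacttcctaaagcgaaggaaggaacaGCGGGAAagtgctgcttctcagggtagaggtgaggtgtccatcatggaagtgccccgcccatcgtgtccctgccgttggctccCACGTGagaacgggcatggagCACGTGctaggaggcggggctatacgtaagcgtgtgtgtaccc
Mov10l1 promoter: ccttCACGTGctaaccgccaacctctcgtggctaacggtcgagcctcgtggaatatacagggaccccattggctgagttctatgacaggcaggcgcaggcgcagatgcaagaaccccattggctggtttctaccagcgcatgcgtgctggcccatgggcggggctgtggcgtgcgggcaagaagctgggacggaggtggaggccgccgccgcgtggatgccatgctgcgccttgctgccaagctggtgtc
These letters describe the windows; no binding or methylation was measured in the counts.

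Genes of the 2-cell embryo, some of which are expressed in rare ESCs, were measured mostly at very low levels. Of 17 listed, 15 were in the table and 8 passed the filter on low counts. A member this low passes only through libraries where it is high, so no count or median over the 8 is given, and no fold for the low members. The exception in level was *Eif1a*, the most abundant member, at 349 and 371 CPM in DKO and 346, 265 and 326 CPM in Tet1-/- (log2 0.20, SE 0.121). *Zscan4d*, of a family linked to telomere maintenance, was at 1.45 and 2.17 CPM in DKO and 0.341, 0.0378 and 0.367 CPM in Tet1-/-. *Zscan4c* was at 0.983 and 1.29 CPM against 0.155, 0.0378 and 0.200 CPM. *Usp17la*, a deubiquitinase gene, was at 1.01 and 2.55 CPM against 0.189 to 0.464 CPM, and *Tcstv1* at 0.434 and 1.19 CPM against 0.0378 to 0.124 CPM. These are multigene families whose near-identical copies share reads, so the split between members is uncertain. A count of 3 equals 0.0877 to 0.115 CPM in the 5 libraries, and some of the Tet1-/- levels lie at or under it.

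Primitive streak and early mesoderm genes tended to the other side, and here the difference depended on the Tet1-/- clone. Of 19 tested, 17 had a lower level in DKO (53.4% of all genes did), 8 were over 2-fold lower (2.28% of all genes), 1 did not overlap below (10.4% of all genes) and 1 did not overlap above (12.1%). The median log2 difference was -0.87, with 0 called. It was -0.35 without clone 2.2 and -1.35 without clone 2.4. The summed level was 465 CPM in DKO replicate 1 and 657 CPM in replicate 2, against 1006, 1763 and 455 CPM in Tet1-/- clones 2.1, 2.2 and 2.4, so clone 2.4 lay below both DKO clones.

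**Figure D2:**
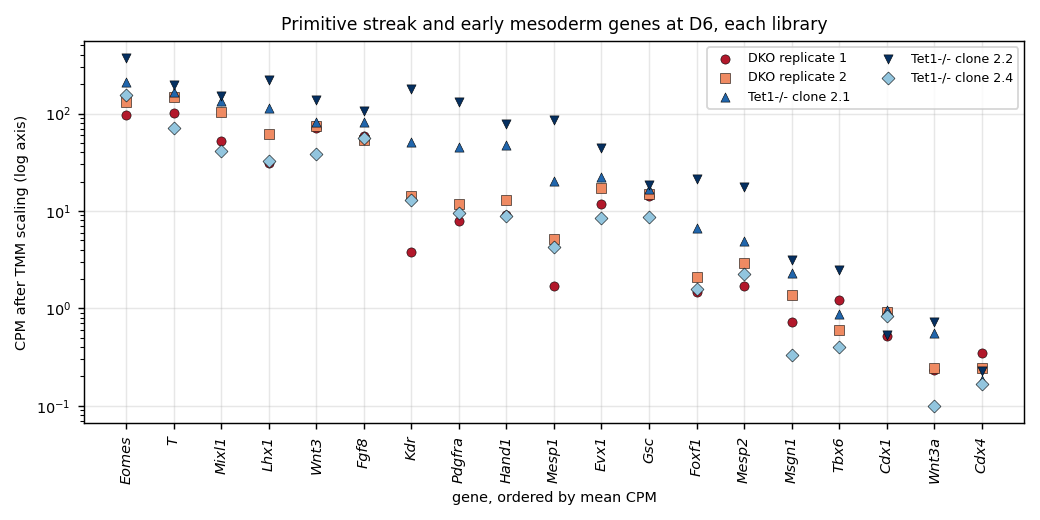
Level of each primitive streak and early mesoderm gene (x axis) in CPM after TMM scaling (y axis, log scale) in the 5 libraries at D6. Tet1-/- clone 2.2 is the highest library for most genes and clone 2.4 lies among or below the DKO libraries except for *Eomes*.

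*Eomes*, a T-box factor of the streak, was the member whose DKO libraries lay below all Tet1-/- libraries, at 96.3 and 131 CPM in DKO and 209, 370 and 157 CPM in Tet1-/- (log2 -1.11, SE 0.430). *Kdr*, the VEGF receptor of mesodermal progenitors, was at 3.76 and 14.2 CPM in DKO and 50.8, 177 and 13.1 CPM in Tet1-/- (log2 -3.17, SE 1.07). *Pdgfra*, a receptor of paraxial mesoderm and primitive endoderm, was at 7.93 and 11.8 CPM against 45.7, 130 and 9.48 CPM (log2 -2.65, SE 0.918). *Mesp1*, a master factor of cardiac mesoderm, was at 1.71 and 5.21 CPM against 20.4, 85.8 and 4.24 CPM (log2 -3.42, SE 1.12). For *Kdr*, *Pdgfra* and *Mesp1* clone 2.4 lay within the DKO range and the other Tet1-/- clones far above it. Without clone 2.2 the differences were -0.69 for *Eomes*, -1.84 for *Kdr*, -1.49 for *Pdgfra* and -1.84 for *Mesp1*. *Cdx4*, a caudal homeobox gene, lay above, at 0.347 and 0.245 CPM in DKO and 0.186, 0.227 and 0.167 CPM in Tet1-/-, near the floor of 3 counts. *T* (Brachyury) overlapped, at 101 and 148 CPM in DKO and 71.2 to 198 CPM in Tet1-/-.

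Lists of later lineages were mixed, and their medians moved with single libraries. Cardiac mesoderm genes were below 0 in 12 of 14 tested (median -0.70; -0.36 without clone 2.2), with *Hand2*, a heart-field factor, at 0.318 and 0.804 CPM in DKO and 0.868 to 8.66 CPM in Tet1-/-, and *Mef2c* at 0.174 and 0.595 CPM against 1.00 to 2.42 CPM. Of 29 Hox genes listed, 22 passed the filter, several of them near the floor of 3 counts, so no count or median over them is given. BMP ligands and Id genes were below 0 in 12 of 15 (median -0.41; -0.16 without clone 2.2, -0.24 without DKO replicate 1, -0.25 without clone 2.1), though *Id2*, an inhibitor of bHLH factors, was higher in DKO at 66.8 and 81.5 CPM against 25.2 to 65.8 CPM. *Bmp7* was lower, at 9.49 and 9.16 CPM against 10.4 to 23.8 CPM. Endoderm genes had a median of -0.25 with 10 of 16 below 0, near the share over all genes, and the median was -0.05 without DKO replicate 1 and -0.44 without replicate 2. Among them *Cxcr4* was at 9.34 and 17.6 CPM in DKO and 13.9 to 94.3 CPM in Tet1-/-, *Gata6* at 8.30 and 13.2 CPM against 6.51 to 42.4 CPM, and *Apoe*, a lipid carrier, on the other side at 348 and 302 CPM against 190 to 262 CPM. *Lrp2*, the endocytic receptor megalin, was likewise higher at 510 and 439 CPM against 176 to 386 CPM. Neuroectoderm genes were below 0 in 14 of 17 (median -0.30; -0.12 without DKO replicate 1, 0.07 without clone 2.4), led by *Ncam1* at 2.72 and 4.72 CPM against 5.01 to 15 CPM and *Sox11* at 91.3 and 94.0 CPM against 118 to 183 CPM. Several neuroectoderm and cardiac members were low, such as *Hes5* and *Tnnt2*, with means of 0.123 and 0.363 CPM over the compared libraries. The counts and medians of these lists include such members and are uncertain for that reason. Parietal endoderm genes had a median of -0.38 (-0.06 without DKO replicate 1, -0.65 without replicate 2). Endothelial and blood genes had -0.19 with 7 of 13 below 0 (-0.27 to 0.18 over the alternatives), and trophectoderm genes 0.13 with 9 of 15 above 0 (0.04 without clone 2.2, 0.0 without clone 2.4).

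Several genes of epithelial junctions were higher in DKO than in each Tet1-/- clone, by less than 2-fold. In the list of epithelial and mesenchymal genes (18 tested, median 0.02), 7 did not overlap above (12.1% of all genes) and 1 below (10.4%), while 3 were over 2-fold lower (2.28% of all genes) and 0 over 2-fold higher. The 3 were mesenchymal genes: *Snai1*, a repressor of E-cadherin, at 7.32 and 13.1 CPM in DKO and 24.5, 64.9 and 10.4 CPM in Tet1-/- (log2 -1.70, SE 0.730), *Fn1*, fibronectin, at 695 and 1125 CPM against 1939, 3669 and 919 CPM (log2 -1.26, SE 0.550), and *Cdh2*, N-cadherin, at 34.5 and 64.7 CPM against 96.1, 187 and 43.7 CPM (log2 -1.13, SE 0.786). In all 3 clone 2.4 lay within the DKO range, and without clone 2.2 the differences were -0.78, -0.65 and -0.50. *Cldn7*, a claudin of tight junctions, was at 88.2 and 78.1 CPM in DKO and 62.0, 54.8 and 54.6 CPM in Tet1-/- (log2 0.54, SE 0.141, edgeR unadjusted p = 0.00270, adjusted p = 0.860). *Cldn3* was at 40.2 and 26.4 CPM against 20.3, 22.8 and 18.9 CPM (log2 0.69; 0.35 without DKO replicate 1), and *Ocln*, the tight junction protein occludin, at 42.6 and 45.0 CPM against 31.7, 25.8 and 34.1 CPM. *Epcam*, an epithelial adhesion molecule, was at 367 and 312 CPM against 245, 223 and 287 CPM. Smooth muscle and contractile genes were above 0 in 13 of 16 (median 0.20; 0.10 without clone 2.2) with 5 not overlapping above (12.1% of all genes), among them *Tagln*, at 390 and 491 CPM against 370, 159 and 254 CPM, and *Myh9*, non-muscle myosin heavy chain, at 1368 and 1178 CPM against 1075, 924 and 1005 CPM. Collagen and matrix genes had a median of 0.32, with 12 of 20 above 0, and the median was 0.09 without clone 2.2, 0.15 without DKO replicate 2 and 0.19 without clone 2.4.

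Genes of the LIF pathway were also measured. *Pim1* and *Pim3*, kinases downstream of STAT3, were higher in DKO: *Pim1* at 140 and 122 CPM against 88.5, 55.6 and 84.6 CPM (log2 0.78, SE 0.178), and *Pim3* at 93.1 and 81.0 CPM against 62.0, 46.6 and 68.3 CPM (log2 0.56, SE 0.166). The LIF receptor gene *Lifr* was lower, at 7.55 and 9.06 CPM against 11.6, 14.2 and 10.8 CPM. Over the 14 genes of the LIF and STAT3 pathway the median was 0.14 (0.06 without clone 2.4, 0.32 without clone 2.1). Wnt targets were below 0 in 13 of 14 (median -0.34; -0.03 without clone 2.2, -0.53 without DKO replicate 2), and Nodal and Lefty signalling genes had a median of -0.08. *Lefty1*, a Nodal antagonist, overlapped between the groups, at 36.8 and 47.1 CPM in DKO and 9.80 to 53.1 CPM in Tet1-/-.

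Pluripotency genes showed little separation. Core pluripotency genes (8 tested) had a median of -0.12 (-0.26 without clone 2.2, 0.19 without clone 2.4), naive genes (18) 0.04 (-0.23 without clone 2.2, 0.34 without clone 2.4), and formative and primed genes (14) -0.00. *Pou5f1* was at 304 and 362 CPM in DKO and 271 to 472 CPM in Tet1-/- (log2 -0.11, SE 0.278), and *Nanog* at 442 and 334 CPM against 314 to 374 CPM (log2 0.19, SE 0.294). *Sall4*, a zinc finger partner of both, was lower without overlap, at 267 and 303 CPM against 330, 379 and 340 CPM (log2 -0.30, SE 0.132). *Fbxo15* was higher without overlap, at 65.1 and 66.1 CPM against 43.7, 21.5 and 47.7 CPM. *Cdx2* and *Sin3a* overlapped, at 3.38 and 8.53 CPM in DKO and 5.54 to 10.4 CPM in Tet1-/- for *Cdx2* (log2 -0.36) and 215 and 202 CPM against 181 to 222 CPM for *Sin3a* (log2 0.04).

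Of 5 genes of DNA methyltransferases and *Uhrf1*, 4 were below 0 (53.4% of all genes) and 2 did not overlap below (10.4%). *Dnmt3a*, a de novo DNA methyltransferase, was at 147 and 142 CPM in DKO and 185, 209 and 201 CPM in Tet1-/- (log2 -0.46, SE 0.105; edgeR unadjusted p = 0.00121, adjusted p = 0.860). *Dnmt1*, the maintenance enzyme, was at 234 and 253 CPM against 260, 271 and 308 CPM. For both genes DKO lay below all Tet1-/- clones. *Dnmt3l*, a cofactor of de novo methylation named after its values were seen, overlapped and was higher on average, at 182 and 221 CPM in DKO and 118, 45.9 and 201 CPM in Tet1-/- (log2 0.73, SE 0.427; 0.34 without clone 2.2, 1.3 without clone 2.4). The median over these 5 genes was -0.18, and over 15 TET partners and base excision repair genes -0.08. In that last list *Gadd45b*, a stress-induced gene, was higher at 50.4 and 40.4 CPM against 39.4, 24 and 21.9 CPM. Cell cycle genes included *Ccnd1*, cyclin D1, at 89.9 and 110 CPM in DKO and 130, 137 and 166 CPM in Tet1-/- (log2 -0.53, SE 0.151), *Cdkn1b*, at 39.4 and 32.2 CPM against 41.4 to 52.9 CPM, and *Cdk6*, at 54.6 and 46.5 CPM against 31.8 to 42.1 CPM. The list of cyclins and CDK inhibitors had a median of -0.18 (-0.32 to -0.08 over the alternatives).

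Most remaining lists had medians near 0. Over the alternatives the median ran from -0.17 to -0.06 for Polycomb subunits (-0.11), from -0.20 to -0.11 for imprinted genes (-0.11), from -0.23 to 0.08 for glycolysis (-0.07), from 0.07 to 0.18 for p53 targets (0.12) and from -0.20 to 0.15 for X inactivation genes (-0.03). Of 11 *Rhox* genes listed, 5 passed the filter, and no median over them is given. The 3 *Tet* genes had -0.25, with -0.81 without DKO replicate 2 and -0.06 without replicate 1. Of imprinted genes, *Phlda2* was lower in DKO at 23.1 and 38.5 CPM against 43.8 to 140 CPM. The Y chromosome list had a median of 0.56 over 5 genes, with clone 2.4 low as given above (-0.26 without DKO replicate 1, 1.39 without clone 2.2).

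**Figure D3:**
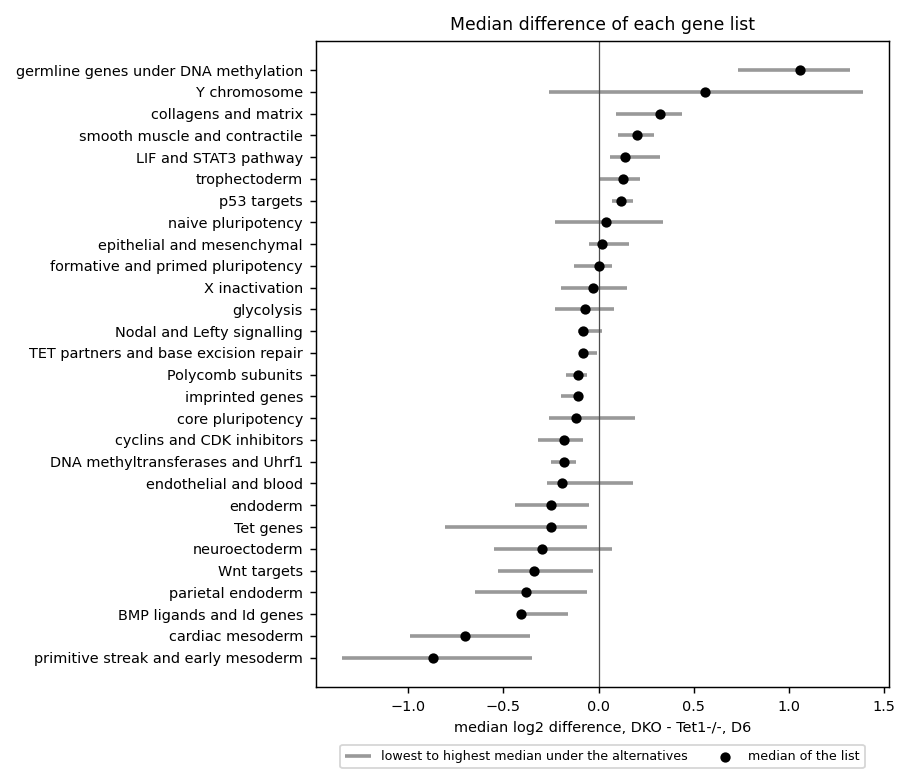
Median log2 difference, DKO minus Tet1-/- at D6 (x axis), for each gene list (y axis) other than the 2-cell, Hox and Rhox lists, several of whose members are near the floor of 3 counts or failed the filter. Points are the medians, and bars run from the lowest to the highest median under the other settings, libraries left out included. Germline genes stay above 0 and primitive streak genes below 0 in every setting. Many other lists also keep their side, such as cardiac mesoderm (-0.99 to -0.36) and smooth muscle genes (0.10 to 0.29). The settings share most of their libraries.

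The interaction at D6 asked whether the difference made by the *Tet2* edit on the *Tet1*-edited background equalled that on the WT background, that is, (DKO - Tet1-/-) - (Tet2-/- - WT). These differences share no library. In the interaction, 978 genes were called higher (6.34%) and 447 lower (2.9%) by edgeR at an adjusted p under 0.05 and over 2-fold. At an unadjusted p under 0.05 and over 2-fold these were 11.2% and 6.46% of the genes tested. The number of calls depends on single libraries: it was 2 without Tet2-/- replicate 1 and 0 without replicate 2 (edgeR), 3 without DKO replicate 1 and 402 without replicate 2. It was 848 without Tet1-/- clone 2.4, and 704 and 608 without WT replicates 2 and 3. In those 4 fits without a Tet2-/- or DKO library all 1425 genes kept their direction. The genes were chosen by the full fit, whose other libraries these fits reuse. Their direction could therefore hardly change, and it gives no separate support.

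Genes that moved with the *Tet2* edit alone were read in DKO and Tet1-/-, which are other libraries. Between Tet2-/- and WT, 742 genes were called higher (4.81%) and 1459 lower (9.45%), against 6.15% and 11.6% at an unadjusted p under 0.05. The 742 had a median log2 difference of 1.63 between Tet2-/- and WT and of -0.13 between DKO and Tet1-/-. For the 1459 the medians were -1.89 and 0.09. Of the 1459, 143 (9.80%) were over 2-fold lower in DKO than in Tet1-/- and 52 (3.56%) over 2-fold higher, where 2.28% and 1.67% of all genes were. Of the 742, 4 (0.539%) were over 2-fold higher and 25 (3.37%) over 2-fold lower. Across all 15435 genes, which are not independent replicates, the differences had a Pearson's r of 0.0156 and a Spearman's rho of -0.174.

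**Figure D4:**
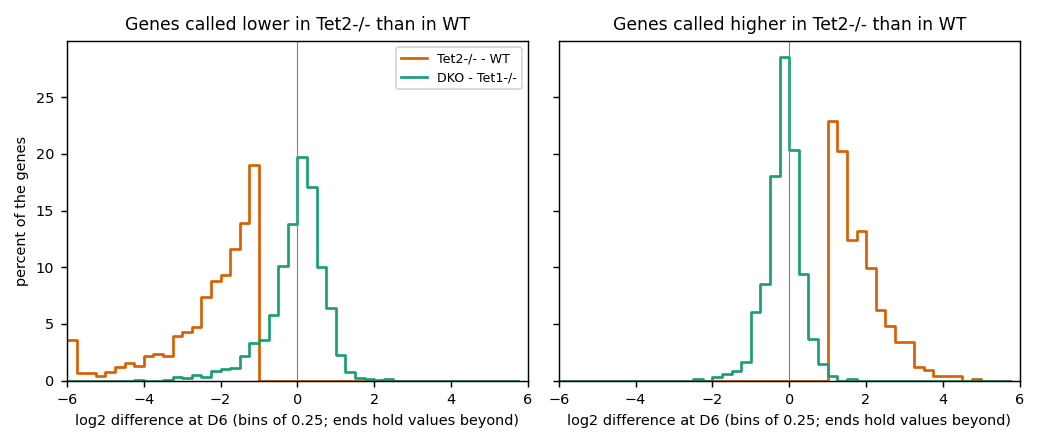
Percent of genes (y axis) by log2 difference at D6 (x axis, bins of 0.25), for genes called lower (left) and higher (right) in Tet2-/- than in WT. The Tet2-/- minus WT values lie past 1 in either direction because they chose the genes, and the DKO minus Tet1-/- values of the same genes centre near 0, with medians of 0.09 and -0.13.

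Of 19 primitive streak genes tested, 14 were called lower in Tet2-/- than in WT (9.45% of all genes). In the interaction, which shares the Tet2-/- and WT libraries, 7 were called, all higher (6.34%). *Lhx1*, a LIM factor of the anterior streak, was at 1.94 and 0.549 CPM in Tet2-/- and 58.1, 192 and 131 CPM in WT, while DKO had 30.8 and 61.1 CPM and Tet1-/- 114, 221 and 32.2 CPM. Its interaction was 5.21 on the log2 scale (adjusted p = 0.0201). *Gata6*, of primitive endoderm, was at 0.788 and 0.476 CPM in Tet2-/- against 17.6 to 63.2 CPM in WT (interaction 4.78, adjusted p = 0.0223), and *T* at 13.4 and 5.42 CPM against 82.8 to 173 CPM (interaction 3.61, adjusted p = 0.0235). *Gsc*, *Hand1*, *Wnt3* and *Fgf8* had interactions of 2.92, 5.31, 2.66 and 1.69, and *Sox17*, *Cer1*, *Dkk1* and *Sp5* of 6.66, 5.82, 5.30 and 3.36.

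Keratin, contractile and matrix genes were among those called higher. *Krt18*, a simple-epithelium keratin, was at 54.7 and 51.7 CPM in Tet2-/- and 321 to 682 CPM in WT, with 417 and 481 CPM in DKO and 237 to 506 CPM in Tet1-/- (interaction 3.73, adjusted p = 0.0101). *Krt8*, *Krt7* and *Krt19* had interactions of 3.76, 3.01 and 4.18. *Sparc*, a matrix glycoprotein, was at 180 and 170 CPM in Tet2-/-, 431 to 618 CPM in WT, 367 to 536 CPM in Tet1-/- and 593 and 596 CPM in DKO (interaction 1.98, adjusted p = 0.00965). *Cldn7* (1.70), *Cldn3* (1.96), *Myh9* (1.44), *Tpm1* (2.19), *Tagln* (2.53) and *Lmod1* (3.53) were called as well. Against 6.34% of all genes, 4 of 18 epithelial and mesenchymal genes were called higher. Of 16 smooth muscle and contractile genes 7 were called higher, of 20 collagens and matrix genes 8, of 15 trophectoderm genes 7 and of 27 imprinted genes 6, with *Igf2*, *H19* and *Peg3* at 3.97, 4.0 and 2.73.

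**Figure D5:**
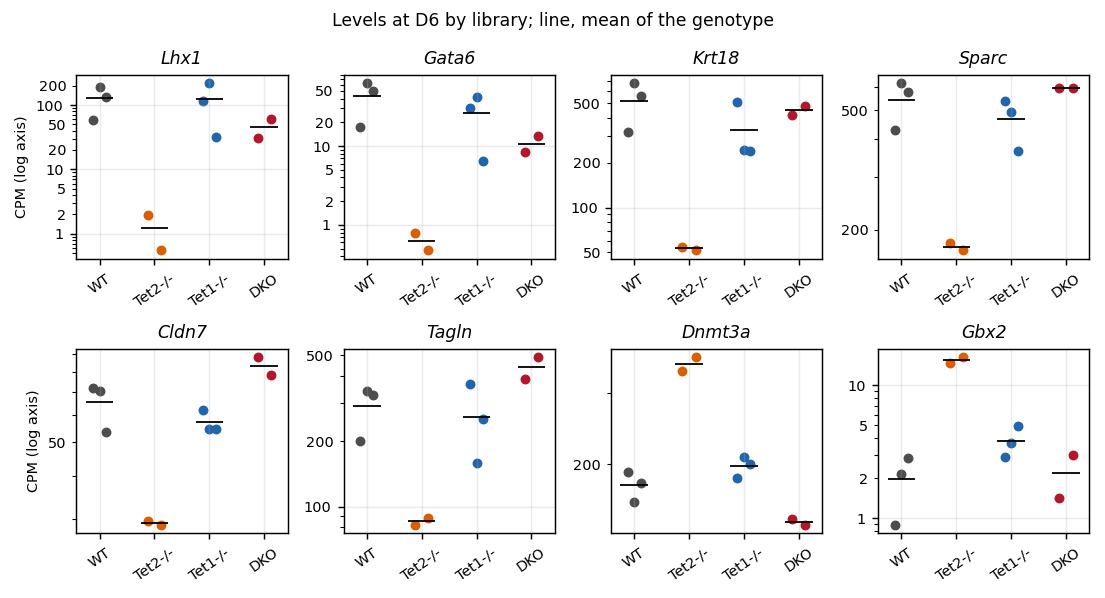
Level in CPM (y axis, log scale) of 8 genes called in the interaction, in the WT, Tet2-/-, Tet1-/- and DKO libraries at D6 (x axis), with 1 point per library and a line at the mean. Tet2-/- stands apart from WT in each gene, below it or, for *Dnmt3a* and *Gbx2*, above it. On this log scale the DKO mean is nearer to the WT and Tet1-/- means than to that of Tet2-/-. The genes were picked among the calls, which favours such a pattern.

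The named genes called lower in the interaction included several that Tet2-/- expressed above WT. *Dnmt3a* was at 340 and 368 CPM in Tet2-/- and 161 to 192 CPM in WT, and thus opposite to its lower level in DKO (interaction -1.45, adjusted p = 0.00487, the smallest of the comparison). *Gbx2*, a homeobox target of LIF signalling, was at 14.7 and 16.3 CPM in Tet2-/- and 0.895 to 2.85 CPM in WT, against 1.42 and 2.97 CPM in DKO (interaction -3.79). *Tcl1*, an Akt co-activator of naive ESCs, was at 63.2 and 71.2 CPM in Tet2-/- and 4.78 to 12 CPM in WT, against 9.54 and 10.4 CPM in DKO (interaction -3.27). *Lefty2* and *Ccnd1* had interactions of -2.19 and -1.14. The extremes by the naming rule were *Capn6* (6.91), at 0.303 and 0.293 CPM in Tet2-/-, and *Cped1* (-5.65), at 3.94 and 4.32 CPM there. The fitted size for genes this low depends on the prior count.

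The interaction holds the DKO and Tet1-/- libraries themselves, so it is not independent of that comparison. Some genes named above for DKO against Tet1-/- were called in the interaction too: *Icosl* (1.97), *Slamf9* (3.26), *Pmaip1* (2.25), *Gadd45b* (2.17), *Zfp36l2* (-1.18), *Ankrd34a* (-3.88) and *Tmem229a* (-2.79). Germline genes had 0 calls of 23 in the interaction by edgeR, where 6.34% of all genes were called higher and 2.9% lower, and their median interaction was 0.77, beside 0.02 over all genes.

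Before LIF withdrawal the same genotypes were compared in other libraries. At D0, 0 of 14456 genes were called higher (0.0%) and 0 lower (0.0%) by edgeR, with 70 higher (0.484%) and 133 lower (0.92%) at an unadjusted p under 0.05 and over 2-fold. DESeq2 called 31, of which 6 were higher. With only the 5 compared libraries in the fit edgeR called 68, of which 26 were higher. The germline genes had a median log2 difference of 0.32 at D0. Their summed level was 572 and 561 CPM in DKO and 554, 595 and 544 CPM in Tet1-/-, so the genotypes overlapped and stood above the D6 levels in each. *Mael* was at 15.8 and 17.3 CPM in DKO and 20.9, 25.9 and 19.7 CPM in Tet1-/- at D0, the opposite order to D6. The primitive streak genes had a median of -0.06. Across 14185 genes the D0 and D6 differences had a Pearson's r of 0.163 and a Spearman's rho of 0.106.

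Whether the difference between DKO and Tet1-/- itself changed from D0 to D6 was tested over all 24 libraries. Here 0 of 15639 genes were called higher (0.0%) and 0 lower (0.0%) by edgeR, with a smallest adjusted p of 0.461, and 198 higher (1.27%) and 113 lower (0.723%) at an unadjusted p under 0.05 and over 2-fold. DESeq2 called 2, *Arl4c* higher and *Epha4* lower. The median change was 0.63 for germline genes and -0.82 for primitive streak genes, beside -0.01 over all genes. Clone 2.2 was sequenced at D6 only and clone 2.3 at D0 only, so the change between days includes a change of clone.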

How the data were processed

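The authors prepared libraries from polyadenylated RNA (NEBNext Ultra), and aligned the read pairs to mm9 using STAR 2.5.1, per the labels. The deposited values are raw counts per RefSeq transcript, named by gene symbol and not normalized. Whether counting used strand was not stated, so genes that overlap or lie antisense are uncertain. Each table has 31928 lines for 22926 symbols, and for a symbol with several lines the one listed first was taken. ERCC spike-in rows numbered 0, so no spike-in scaling was applied.

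Counts were analysed in R 4.3.3 with edgeR 4.0.16 (quasi-likelihood test, TMM, filterByExpr with a minimum count of 10), 1 coefficient per group. All 12 libraries of a day were fitted together, or all 24 for the change between days, with Benjamini-Hochberg adjustment over all genes tested. A gene was called at an adjusted p under 0.05 and an absolute log2 difference over 1. DESeq2 1.42.0, other scalings and filters, the line with the largest total, the compared groups alone, a replicate block and leaving out each library were alternatives. CPM values are after TMM. Simulated counts with 200 genes of log2 change 2 were used as a check. For DKO against Tet1-/- at D6, edgeR made 6 false calls and DESeq2 21. For the interaction edgeR recovered 124 with 8 false calls.

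The genes named are the *Tet* genes, 8 genes of the study, for each direction up to 15 of DKO against Tet1-/- (by p among genes over 2-fold without overlap and with a mean of at least 1 CPM in either group), up to 8 of the interaction, and up to 6 per list by p; not all are printed. The members and lists were chosen with earlier results of these data known. Depth, 18400463 to 34219640 counts at D6, sets the floor of 3 counts, which covers counting error only.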

Additional observations from a re-analysis of the deposited data

Results flagged for a closer look

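A closer look is due where the *Tet2* edit gave unequal differences on the *Tet1*-edited and WT backgrounds by the interaction test at D6. By edgeR 978 genes were called higher and 447 lower. Of the genes named, these were higher on the log2 scale: *Gata6* 4.78, *T* 3.61, *Gsc* 2.92, *Lhx1* 5.21, *Hand1* 5.31, *Wnt3* 2.66, *Fgf8* 1.69, *Sox17* 6.66, *Cer1* 5.82, *Dkk1* 5.30 and *Sp5* 3.36 among lineage genes. Keratins *Krt18*, *Krt8*, *Krt7* and *Krt19* had 3.73, 3.76, 3.01 and 4.18. Contractile, matrix and junction genes *Myh9*, *Tpm1*, *Lmod1*, *Tagln*, *Sparc*, *Cldn7* and *Cldn3* had 1.44, 2.19, 3.53, 2.53, 1.98, 1.70 and 1.96. Imprinted *Igf2*, *H19* and *Peg3* had 3.97, 4.0 and 2.73, and *Icosl*, *Slamf9*, *Pmaip1*, *Gadd45b* and *Capn6* had 1.97, 3.26, 2.25, 2.17 and 6.91. Lower were *Dnmt3a* -1.45, *Gbx2* -3.79, *Tcl1* -3.27, *Lefty2* -2.19, *Ccnd1* -1.14, *Zfp36l2* -1.18, *Cped1* -5.65, *Ankrd34a* -3.88 and *Tmem229a* -2.79. Groups of 2 or 3 clones are too small for a test of single outlying libraries. Y-linked levels were low in the Tet2-/- clones and in Tet1-/- clone 2.4, and their part in these differences was not tested.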

How the results depend on the processing

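For DKO against Tet1-/- at D6, edgeR called 0 genes under every alternative run (smallest adjusted p 0.177, without clone 2.1), and DESeq2 called 3. Counts at an unadjusted p and over 2-fold were lowest without DKO replicate 1 (67 higher, 53 lower). Non-overlapping genes over 2-fold numbered 114 higher and 96 lower at a mean of at least 1 CPM. For the interaction the count was 1425, and 2017 with DESeq2, 1698 with the compared groups alone, 1403 with DESeq2 size factors, 1408 with library totals, and 0 to 2125 when a library was left out (2125 without clone 2.2, 608 without WT replicate 3). With the replicate block it was 1004, of which 981 were among the 1425. Deviations of same-numbered clones had correlations of -0.0119 and -0.204, so no pairing by number was seen. The deviations of the 2 DKO libraries mirror each other, so this check cannot exclude a pairing. At D0 the count was 0, with 31 by DESeq2, 6 without a filter, 68 with the compared groups alone and 0 to 1 when a library was left out; for the change between days it was 0, with 2 by DESeq2 and 0 with the clone as a replicate block. The causes of these differences were not tested. Some named genes near 0 turned direction when a library was left out, with ranges of -0.81 to 0.15 for *Tet1*, -0.17 to 0.07 for *Tet3*, -0.28 to 0.13 for *Pou5f1*, -0.03 to 0.37 for *Nanog*, -1.18 to 0.16 for *Cdx2*, -0.55 to 0.07 for *T* and -0.04 to 0.11 for *Sin3a*. With the replicate block *Pou5f1* was 0.02 and *Sin3a* -0.02.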
